A study of Mus musculus with 6 samples.

Results

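The 10 genes described here, Ppargc1a, Ppargc1b, Tfam, Nrf1, Esrra, Esrrg, Ucp2, Mfn2, Opa1 and Dnm1l, govern how many mitochondria a cell makes, how these couple respiration to ATP, and how they fuse and divide. Their mRNA levels were compared between Wnt4hi and Wnt4low islet cells of newborn mice. The members were all probes that are not controls and whose RefSeq transcript carries 1 of the 10 symbols, which gave 20 of the 56605 probes on the array, or 10 of the 22908 genes with a symbol. The rule used no measured value. At an unadjusted p under 0.05, the threshold of the study, 0 of the 10 genes and 0 of the 20 probes differed between the populations by limma's empirical Bayes test, where 13.2% of all genes and 11% of all probes did. After adjustment over all probes 0 of the 20 did, against 0.477% of all probes. Esrrg set aside, the widest fitted differences on the log2 scale were −0.90 for Ppargc1b and −0.74 for Esrra. Both were lower in Wnt4hi cells and within the spread between arrays. The fitted 0.83 of Esrrg has no rank among the members, since Esrrg was well above background on 0 Wnt4low arrays. Its mean Wnt4hi signal lay only 1.12-fold above the lowest signal that is well above background on those arrays. The Wnt4hi and Wnt4low arrays did not overlap for 2 of the 10 genes, Ucp2 and Opa1, as for 18.4% of all genes. By its brighter probe each was slightly above in Wnt4hi cells, and the other probe of Opa1 pointed the opposite way.

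The data were 6 single-color microarrays of islet cells sorted by FACS, 3 of Wnt4hi and 3 of Wnt4low cells, and each array held RNA of islets pooled from 3 or 4 pups at postnatal day 1. All pups were described as Wnt4eGFPCre;mTmG, on a cross to C57BL/6J. They carried Wnt4 tm2(EGFP/cre)Svo, an allele that places eGFP and Cre under the control of the Wnt4 locus, together with the Gt(ROSA)26Sor mTmG reporter, which switches a cell from membrane tdTomato to membrane GFP (mGFP) once Cre has acted. Wnt4hi cells were mGFP+ (labelled GFPpositive) and Wnt4low cells mGFP− (labelled GFPnegative). A supplementary legend of the study instead names the compared sets Wnt4eGFPCre Tg+ and Wnt4eGFPCre Tg−. This conflict was not resolved here, and a difference of genotype could not be told apart from the sort. Because the switch is permanent, mGFP marks a cell in which Wnt4 has been transcribed at some time, and its progeny, rather than the Wnt4 level of the moment. The gate was set on mGFP and not on a hormone, so each population can hold every cell type of the islet. In such sorted bulk samples, fewer cells of a type and less RNA per cell cannot be told apart. Nothing in the labels says whether arrays of a population came from separate litters, so p values measure the spread between these samples.

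Mitochondrial biogenesis is driven from the nucleus. The coactivators PGC-1α and PGC-1β, made by Ppargc1a and Ppargc1b, bind transcription factors such as NRF-1 and the estrogen-related receptors ERRα and ERRγ, which turn on genes of respiration and the gene of TFAM, the protein that packages and transcribes mitochondrial DNA. Mitochondrial shape is set by dynamin-like GTPases, since MFN2 fuses the outer membrane, OPA1 fuses the inner membrane and holds the cristae, and DRP1, made by Dnm1l, constricts and divides the organelle. In β-cells glucose is sensed through mitochondrial ATP, which closes potassium channels and leads to insulin release. UCP2, a carrier of the inner membrane, lowers the coupling of respiration to ATP, and ERRγ is known for its part in the postnatal metabolic maturation of β-cells.

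Of the spots that are not controls, 70.5% to 79.5% were well above background, with little difference between the populations, and all arrays came from 1 slide and 1 scan. Wnt4 itself was at log2 intensities of 11.20, 10.53 and 10.77 on the Wnt4hi arrays (replicates 2, 3 and 4) and of 9.85, 10.10 and 9.31 on the Wnt4low arrays (replicates 1, 3 and 4). Every Wnt4hi array was above every Wnt4low array, and the log2 fold change was 1.08 (standard error 0.27). Wnt4 passed the unadjusted threshold (limma unadjusted p = 0.00726, adjusted p = 0.204). In the deposited table of normalized values, the column of Wnt4hi replicate 2 followed its own scanner array poorly, with a correlation across genes of 0.27 where the other 5 columns had 0.84 to 0.87. Its correlation with the scanner array of Wnt4hi replicate 3 was 0.29. Values that this replicate moved by over 1.5 times, or turned, are therefore also given without it. For the other probes of Polg2 and Afg3l2 the values of each array are given instead. Markers of other cells moved with the sort. At the unadjusted threshold, all 8 endothelial markers were higher in Wnt4low cells (median log2 fold change −4.03), with a summed intensity of 2324 to 3210 on the Wnt4hi arrays and 28759 to 56447 on the Wnt4low arrays, and the endothelial receptor Tie1 was well above background on 0 Wnt4hi arrays. Of 8 markers of mesenchyme and pericytes, 6 were higher in Wnt4low cells (summed intensity 33877 to 64466 against 79733 to 108019), and of 6 leukocyte markers 4 were (6927 to 8171 against 10397 to 11399). Of the 7 acinar, 5 ductal, 4 Schwann cell and 4 erythroid markers, 1, 1, 1 and 2 were. Of 9 β-cell markers, 5 were higher in Wnt4hi cells (311747 to 327250 against 187613 to 286031), and of 5 α-cell markers 1 was (55951 to 97305 against 10249 to 56110). Both markers of epsilon and PP cells, Ghrl and Ppy, were higher in Wnt4hi cells (32751 to 43991 against 10060 to 14022). Of 3 δ-cell markers, Sst and Hhex were higher in Wnt4low cells and Rbp4 in Wnt4hi cells (19443 to 24647 against 24155 to 28089). The part of these other cells in the values of the mitochondrial genes was not tested.

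Values below are normalized log2 intensities in the order Wnt4hi replicates 2, 3 and 4, then Wnt4low replicates 1, 3 and 4. Log2 fold changes are Wnt4hi minus Wnt4low, so a positive value is higher in Wnt4hi cells, and adjusted p values are those of limma after Benjamini-Hochberg adjustment over all probes. A gene with more than 1 probe is described first by its brightest probe. Intensities of different probes cannot be set against each other, so no order of level between genes is given. With 3 arrays a population, the number of arrays limits the precision.

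Among the coactivators, Ppargc1a was near the detection limit. It was at 7.35, 8.65 and 7.49 in Wnt4hi cells and at 7.31, 8.11 and 7.24 in Wnt4low cells. Replicate 3 was the high array in both populations and the only array of each that was well above background, and the groups overlapped. This gave a difference of 0.28 on the log2 scale (limma standard error 0.42, adjusted p = 0.882). Single arrays moved it, since it was −0.13 without Wnt4hi replicate 3, 0.52 without Wnt4hi replicate 2, 0.45 without Wnt4hi replicate 4, 0.56 without Wnt4low replicate 3, 0.16 without Wnt4low replicate 1 and 0.12 without Wnt4low replicate 4. Its other probe was well above background on 0 of the 6 arrays and was at 6.64 to 7.44 in Wnt4hi and 6.63 to 7.55 in Wnt4low cells.

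Ppargc1b, whose product shares most partners of PGC-1α, was at 8.80, 7.99 and 7.98 in Wnt4hi cells and at 7.87, 9.19 and 10.42 in Wnt4low cells. The Wnt4low arrays were spread over more than 2 log2 units, with replicate 4 above all others and replicate 1 below all others. The populations differed by −0.90 (standard error 0.65, 95% confidence interval −2.47 to 0.67, adjusted p = 0.717). Without Wnt4low replicate 1 it was −1.55 and passed the unadjusted threshold (adjusted p = 0.378), and without Wnt4low replicate 4 it was −0.27, so that its size turned on single Wnt4low arrays. The other Ppargc1b probe was at 7.68 to 9.09 and 8.23 to 8.67, with a log2 fold change of −0.25, and on it Wnt4hi replicate 3 lay above all others. Without that array it was −0.71 and passed the unadjusted threshold (adjusted p = 0.359).

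**Figure D1:**
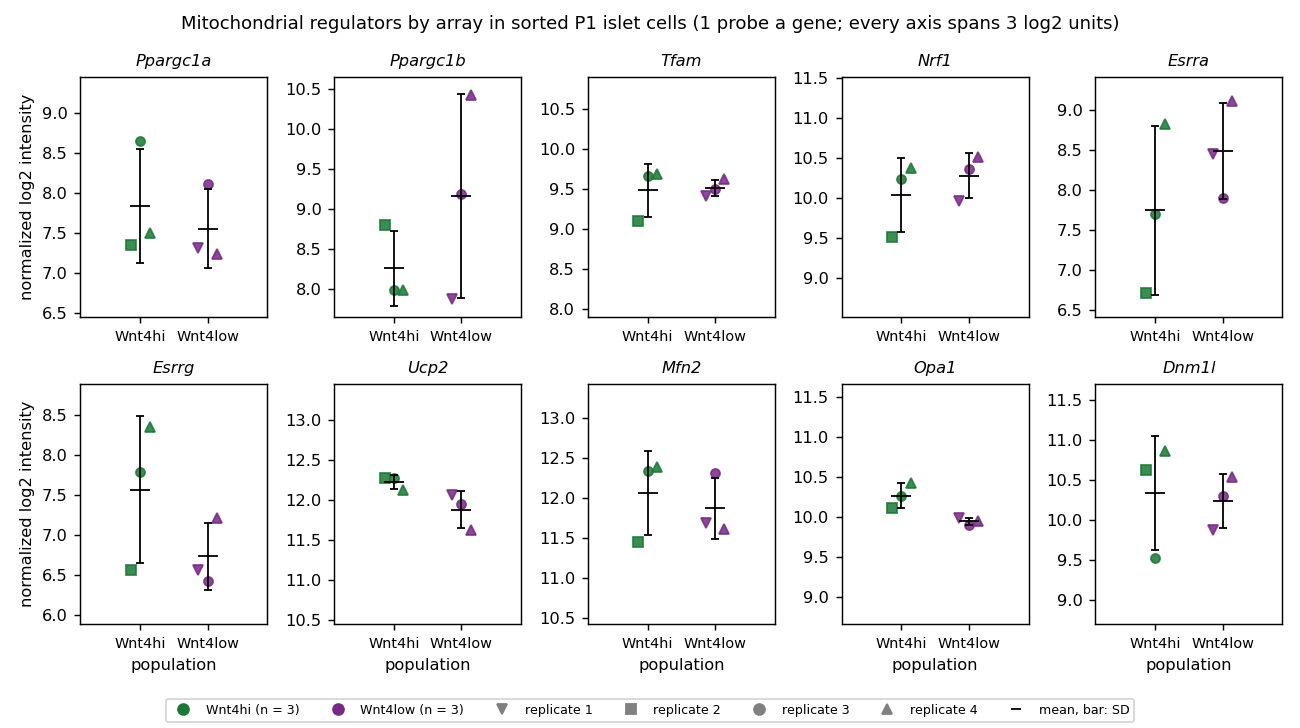
Normalized log2 intensity (vertical axes, each spanning 3 log2 units) of the 10 genes by their brightest probe in the 3 Wnt4hi arrays (green) and the 3 Wnt4low arrays (purple), with symbols for the replicate number, a horizontal mark for the mean and a bar for the SD. The populations are apart for Ucp2 and Opa1, where all Wnt4hi arrays are higher, and overlap for the other 8 genes, with the widest spread of an array group in Ppargc1b and Esrra.

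The nuclear respiratory factor Nrf1 was at 9.51, 10.24 and 10.38 in Wnt4hi cells and at 9.97, 10.36 and 10.51 in Wnt4low cells. Wnt4hi replicate 2 was lowest, and the other 5 arrays lay between 9.97 and 10.51. Their difference was −0.24 (standard error 0.28, adjusted p = 0.843), and without Wnt4hi replicate 2 it was 0.026. Of its 3 other probes, designed on other transcripts of the gene, that of NM_001164229 was well above background on 0 arrays. That of NM_001164227 differed by −0.48, with Wnt4hi replicate 2 at 7.50 and the other 5 arrays between 9.18 and 9.88, and by 0.22 without that array. That of NM_001164228 differed by 0.15.

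Tfam, which lies downstream of NRF-1 and PGC-1α, was at 9.1, 9.66 and 9.69 in Wnt4hi cells and at 9.41, 9.50 and 9.62 in Wnt4low cells. The groups overlapped, and Wnt4hi replicate 2 was again the lowest array. The log2 fold change was −0.026, with a 95% confidence interval from −0.51 to 0.46 (adjusted p = 0.981). It was 0.17 without Wnt4hi replicate 2 and 0.029 without Wnt4low replicate 4. The other probe, on the same transcript, gave −0.33 (standard error 0.23, adjusted p = 0.717), and without Wnt4low replicate 1 it was −0.53 and passed the unadjusted threshold (adjusted p = 0.534).

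Since these factors act through short motifs at the start of their target genes, the promoters of the members were searched on both strands for 4 such motifs. RefSeq promoters (GRCm38.p6, 250 bases before to 50 after the start site) were held for 9 of the 10 members, 16 promoters in all. The palindromic NRF-1 motif, capitalized in the Opa1 sequence, was found in 1 of the 9 genes, Opa1, and in 0.971% of the 32851 promoters searched. The motif CCGGAAGT, of the ETS factor GABPA (also known as NRF-2), was found in Tfam alone, and in 3.89% of all promoters. The ERR motif TNAAGGTCA (in 1.28% of all promoters) and the CREB motif TGACGTCA (in 1.79%) were found in 0 of the 9 genes. The stretches with a match are shown because Tfam and Opa1 are the members whose promoters hold a motif of this network, on the strand of the gene from 150 bases before the start site up to it, with the motif in capitals. The motif begins 47 bases before the start site in Tfam (chr10:71238045-71238194, minus strand) and 59 bases before it in Opa1 (chr16:29579184-29579333, plus strand). A match describes these letters only and is no measure of binding in islet cells.
Tfam: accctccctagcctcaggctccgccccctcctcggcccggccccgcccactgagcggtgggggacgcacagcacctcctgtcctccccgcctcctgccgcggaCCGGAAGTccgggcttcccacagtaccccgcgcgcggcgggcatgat
Opa1: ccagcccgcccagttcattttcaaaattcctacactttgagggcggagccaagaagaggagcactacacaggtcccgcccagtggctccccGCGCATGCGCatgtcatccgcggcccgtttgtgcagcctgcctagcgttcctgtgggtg

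Of the estrogen-related receptors, Esrra was measured by a single probe. It was at 6.72, 7.70 and 8.83 in Wnt4hi cells and at 8.46, 7.91 and 9.11 in Wnt4low cells. It was well above background on 2 of the 3 Wnt4hi arrays and on all Wnt4low arrays, and Wnt4hi replicate 2 was the lowest of the 6. Wnt4hi minus Wnt4low was −0.74 (standard error 0.58, 95% confidence interval −2.15 to 0.67, adjusted p = 0.748). Without Wnt4hi replicate 4 it was −1.28 and passed the unadjusted threshold (adjusted p = 0.459), while without Wnt4hi replicate 2 it was −0.23 and without Wnt4low replicate 4 it was −0.43.

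Esrrg leaned the opposite way. It was at 6.56, 7.79 and 8.35 in Wnt4hi cells and at 6.57, 6.42 and 7.21 in Wnt4low cells. Wnt4hi replicates 3 and 4 were above all Wnt4low arrays and were well above background, while Wnt4hi replicate 2 lay among the Wnt4low arrays, 0 of which were well above background. The difference was 0.83 (standard error 0.48, 95% confidence interval −0.34 to 2.01, adjusted p = 0.639). The Wnt4low arrays give only a bound, the lowest signal that is well above background on each of them. The mean measured Wnt4hi signal was 1.12-fold above this bound, with replicate 2 entered at its value though it was not well above background. As the groups overlapped, this is no least difference between the populations. The other Esrrg probe had the same pattern, at 6.77, 7.30 and 8.33 against 6.60, 7.06 and 6.75. Its difference was 0.66 (standard error 0.40, adjusted p = 0.659), with a Wnt4hi mean 1.05-fold above the bound. Without Wnt4hi replicate 2, the replicate that the deposited table does not follow, Esrrg passed the unadjusted threshold by both probes, at 1.34 (adjusted p = 0.200) and 1.01 (adjusted p = 0.374). It was then the single member gene past that threshold. Without Wnt4hi replicate 4 these values were 0.44 and 0.23, and neither passed.

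By its brighter probe, Ucp2 varied least among the Wnt4hi arrays of the 10 members. It was at 12.28, 12.28 and 12.13 in Wnt4hi cells and at 12.07, 11.95 and 11.63 in Wnt4low cells. Every Wnt4hi array was above every Wnt4low array. The means were 12.23 ± 0.087 and 11.88 ± 0.23 (SD, n = 3 each), which gave a log2 fold change of 0.34, or 1.27-fold (standard error 0.17, 95% confidence interval −0.057 to 0.75, adjusted p = 0.539). All Wnt4hi arrays lay above all Wnt4low arrays for 9.87% of all genes. The other Ucp2 probe, on the same transcript, was at 9.64, 9.22 and 9.71 against 9.64, 9.95 and 8.70. Its groups overlapped, and its log2 fold change was 0.095 (standard error 0.35, adjusted p = 0.958). Without Wnt4low replicate 4 the brighter probe was at 0.22 and the other was −0.27.

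Of the fusion genes, Mfn2 was at 11.46, 12.34 and 12.40 in Wnt4hi cells and at 11.69, 12.32 and 11.61 in Wnt4low cells. Replicate 3 was high in both populations, Wnt4hi replicate 2 was the lowest of the 6, and the groups overlapped. The log2 fold change was 0.19 (standard error 0.33, adjusted p = 0.900) by this probe and 0.26 (standard error 0.23, adjusted p = 0.780) by that of the transcript NM_001285920. Over 17 alternative fits the NM_001285920 probe ran from 0.073 to 0.46 and passed the unadjusted threshold in 0. By the brighter probe it was 0.49 without Wnt4hi replicate 2 and 0.41 without Wnt4low replicate 3, and 0.026 to 0.099 without any 1 of the other 4 arrays, and it passed the unadjusted threshold in none of these 6 fits.

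Opa1 was at 10.11, 10.26 and 10.42 in Wnt4hi cells and at 9.98, 9.89 and 9.95 in Wnt4low cells by the probe of the transcript NM_001199177. All Wnt4hi arrays were above all Wnt4low arrays, with means of 10.26 ± 0.16 and 9.94 ± 0.045 (SD, n = 3 each). The log2 fold change was 0.32, or 1.25-fold (standard error 0.14, 95% confidence interval −0.020 to 0.66, adjusted p = 0.490), the lowest p of the 20 probes. In the authors' table of normalized values the row listed under this probe differed by 0.017 (adjusted p = 0.988). It was at 9.27, 9.25 and 9.59 against 9.23, 9.26 and 9.57, and the groups overlapped. Rows of that table need not hold the values of the probe they are listed under. An example is the Nrf1 row under the probe of NM_001164229, at 9.23 to 9.68 there and 5.82 to 6.40 here. By the probe of the transcript NM_133752, Opa1 was at 8.47, 8.84 and 9.39 in Wnt4hi cells and at 9.27, 9.41 and 10.03 in Wnt4low cells. Here the Wnt4low cells were the higher group, with an overlap through Wnt4hi replicate 4 and Wnt4low replicate 1. The log2 fold change was −0.67 (standard error 0.31, 95% confidence interval −1.43 to 0.079, adjusted p = 0.516), and without Wnt4hi replicate 4 it was −0.92 and passed the unadjusted threshold (adjusted p = 0.397). It was −0.46 without Wnt4hi replicate 2 and −0.44 without Wnt4low replicate 4, and passed in neither.

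Within an array, the log2 signal of the NM_001199177 probe minus that of the NM_133752 probe was 1.64, 1.42 and 1.03 in Wnt4hi cells and 0.71, 0.48 and −0.088 in Wnt4low cells. All 3 Wnt4hi arrays were above all 3 Wnt4low arrays, and the log2 fold changes of the Opa1 probes were 1.00 apart. An exact two-sided permutation test gave p = 0.1 for this gap, the smallest value that 3 against 3 arrays can give, and 1 after Benjamini-Hochberg adjustment over the 10 pairs of probes compared. Opa1 was singled out after its values were seen. Of those 10 pairs, each the brightest probe of a gene against another of its probes, only the Opa1 pair was apart between the populations. Log2 fold changes of opposite sign were found in 3 pairs, of Opa1, Ppargc1a and Nrf1. The share of such pairs over all genes with more than 1 probe was not computed, so 1 pair of 10 has no background to be read against. Which exons the probes lie in was not analysed here.

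**Figure D2:**
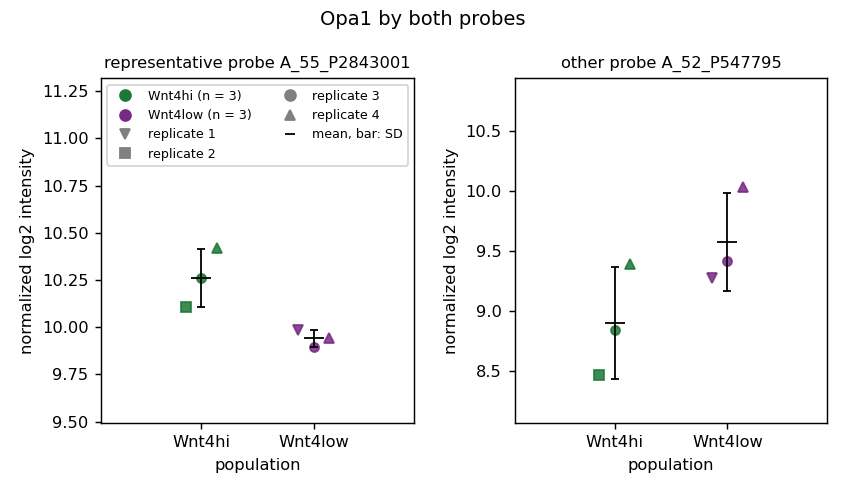
Normalized log2 intensity (vertical axes, scaled to each probe) of Opa1 in Wnt4hi (green) and Wnt4low (purple) arrays by the probe of NM_001199177 (A_55_P2843001, left) and that of NM_133752 (A_52_P547795, right), with the mean and SD of 3 arrays. The left probe is 0.32 higher and the right probe 0.67 lower in Wnt4hi cells on the log2 scale.

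The fission gene Dnm1l was measured by a single probe. It was at 10.63, 9.53 and 10.87 in Wnt4hi cells and at 9.88, 10.30 and 10.54 in Wnt4low cells. Wnt4hi replicate 3 was the lowest of the 6 arrays and Wnt4hi replicate 4 the highest, so that the Wnt4hi group spanned the Wnt4low group. The log2 fold change was 0.10 (standard error 0.39, 95% confidence interval −0.83 to 1.04, adjusted p = 0.959). It was 0.51 without Wnt4hi replicate 3 and −0.040 without Wnt4hi replicate 2, and did not pass in either fit.

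**Figure D3:**
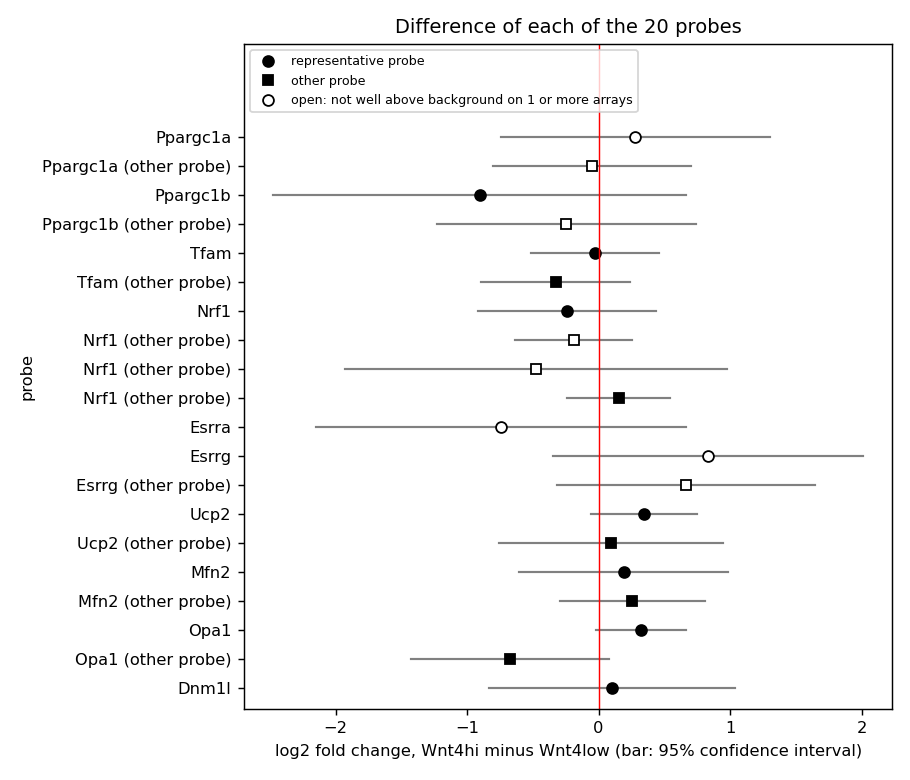
Log2 fold change (horizontal axis, Wnt4hi minus Wnt4low) of each of the 20 probes of the 10 genes, with its 95% confidence interval. Circles are the brightest probe of a gene, squares its other probes, and open symbols are probes that were not well above background on at least 1 of the 6 arrays. Every interval spans 0.

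Of the 10 genes, 6 had a log2 fold change above 0, with a median of 0.15, where 60.4% of all genes were above 0, with a median of 0.061. The members' median had no settled sign, since it was −0.030 without Wnt4hi replicate 3, −0.051 without Wnt4hi replicate 4 and −0.036 with the mean of the probes of each gene. Over the 20 probes, 10 were above 0, with a median of 0.035, where 61.3% of all probes were above 0. The size of the differences, taken without sign, had a median of 0.30 for the members and 0.21 for all genes. Without Wnt4hi replicate 2, 1 member was past the unadjusted threshold in place of 0, and the members' median was 0.24. Without it the less bright probe of Ppargc1b was at −0.0034, that of Tfam at −0.20, that of Ucp2 at 0.038, that of Ppargc1a at 0.13 and the Nrf1 probe of NM_001164228 at 0.27. With each gene centred on its own average, the median of the 10 members was −0.37, 0.16 and 0.27 on the Wnt4hi arrays and −0.23, 0.0052 and 0.091 on the Wnt4low arrays. Wnt4hi replicate 2 was the lowest array of its group for 7 of the 10 genes and Wnt4hi replicate 4 the highest for 7.

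Other genes of mitochondrial biogenesis and dynamics were read from 8 lists with 113 genes, of which 112 were measured. Of these, 2 were higher in Wnt4hi cells and 3 in Wnt4low cells at the unadjusted threshold, or 4.46%, where 13.2% of all genes passed it (5.50% higher in Wnt4hi and 7.67% higher in Wnt4low cells). After adjustment 1 gene remained, against 0.677% of all genes. Of the 112 genes, 70 had a log2 fold change above 0, with a median of 0.12, and 11 had arrays that did not overlap, where 60.4% of all genes were above 0 and 18.4% did not overlap. Without Wnt4hi replicate 2, 6 passed the unadjusted threshold, and without Wnt4hi replicate 4, Wnt4low replicate 3 or Wnt4low replicate 4 it was 9, 10 and 15. Medians of the lists lay between 0.029 and 0.20, and the sign of 5 of the 8 turned under at least 1 alternative. Without Wnt4hi replicate 4 the median was −0.080 for fusion and cristae, −0.070 for fission and −0.056 for import, chaperones and porins. Without Wnt4hi replicate 2 it was 0.016 for the biogenesis network, 0.0041 for mitochondrial DNA maintenance, 0.27 for fission and 0.18 for import.

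The gene that passed adjustment was Inf2, on the list of fission. It encodes an actin-assembling formin that acts where the endoplasmic reticulum meets mitochondria at sites of division. It was at 8.20, 8.16 and 8.44 in Wnt4hi cells and at 10.25, 10.50 and 9.89 in Wnt4low cells. The arrays were far apart, and the log2 fold change was −1.95 (standard error 0.20, adjusted p = 0.0330). With any 1 array left out it passed the unadjusted threshold (−2.11 to −1.80) but no longer passed adjustment (adjusted p = 0.0673 to 0.133). In these smaller fits only 0 to 3 of all probes passed adjustment, against 270 with all arrays. Inf2 lay in the direction of the endothelial and mesenchymal markers, whose part was not tested. No other gene of the 13 on this list passed (8 above 0, median 0.12). Fis1, an outer membrane adaptor of fission, was at 11.60, 11.57 and 11.63 against 12.03, 11.99 and 11.75, with all Wnt4low arrays above and a log2 fold change of −0.32 (adjusted p = 0.487).

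On the list of mitochondrial DNA maintenance and transcription, 2 of 20 genes were higher in Wnt4low cells and 11 of 20 were above 0 (median 0.10). Polg2, the accessory subunit of the mitochondrial DNA polymerase, was at 10.92, 11.10 and 9.91 in Wnt4hi cells and at 11.48, 12.26 and 11.67 in Wnt4low cells. All Wnt4low arrays were above, and the log2 fold change was −1.16 (standard error 0.37, adjusted p = 0.316). Without Wnt4low replicate 3 it was −0.93 and no longer passed the unadjusted threshold. The other Polg2 probe gave −0.23, at 11.85, 8.78 and 9.88 against 10.39, 10.91 and 9.89. On it Wnt4hi replicate 2 was the highest of the 6 arrays, and the other Wnt4hi arrays lay below all Wnt4low arrays. Mterf4, which serves the mitochondrial ribosome, was at 10.27, 10.30 and 9.99 in Wnt4hi cells and at 10.51, 11.56 and 11.48 in Wnt4low cells. Its log2 fold change was −1.0 (standard error 0.31, adjusted p = 0.298), while its other probe gave 0.37, in the opposite direction. It did not pass without Wnt4hi replicate 4 (−0.90), Wnt4low replicate 3 (−0.81) or Wnt4low replicate 4 (−0.85). Among the transcription partners of TFAM, the methyltransferase genes Tfb1m and Tfb2m differed by −0.15 and 0.072 and the RNA polymerase gene Polrmt by 0.29, none past the unadjusted threshold. Without Wnt4hi replicate 2 the value of Tfb2m was −0.19.

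On the list of fusion and cristae, 1 of 15 genes was higher in Wnt4hi cells (9 above 0, median 0.17). Afg3l2, a subunit of the inner membrane m-AAA protease, was at 9.83, 10.54 and 10.08 in Wnt4hi cells and at 9.12, 9.23 and 9.21 in Wnt4low cells. All Wnt4hi arrays were above, and the log2 fold change was 0.96 (standard error 0.21, adjusted p = 0.147), but the other probe gave −0.55 (adjusted p = 0.738). That probe was at 8.34, 9.002 and 9.89 in Wnt4hi cells and at 9.78, 9.23 and 9.87 in Wnt4low cells. Wnt4hi replicate 2 was its lowest array and Wnt4hi replicate 4 its highest, so the groups overlapped. Mfn1, the relative of Mfn2, differed by −0.085, and by 0.12 without Wnt4hi replicate 2. The proteases that cut OPA1, made by Yme1l1 and Oma1, differed by 0.58 and −0.61, neither past the unadjusted threshold, and Oma1 was well above background on 1 Wnt4hi array and differed by −0.35 without Wnt4hi replicate 2.

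Of 17 further genes of the biogenesis network, coactivators, receptors, kinases and deacetylases around PGC-1α, 0 passed, with log2 fold changes from −0.61 to 0.81 and a median of 0.029. Pprc1, the third member of the coactivator family, differed by 0.061, and Esrrb, the third estrogen-related receptor, by 0.029. Gabpa, whose motif the Tfam promoter holds, had the lowest value of the list and was at 9.07, 10.63 and 11.15 in Wnt4hi cells and at 10.87, 10.48 and 11.34 in Wnt4low cells. The groups overlapped, with Wnt4hi replicate 2 the lowest array, and without that array the difference of −0.61 was −0.0077. Without it Pprc1 was at −0.32 and Esrrb at 0.016. The other relatives named here beside the genes past the threshold, Fis1 and Ucp3 among them, were chosen for their kinship with a member after their values were seen.

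On the list of muscle and heart targets of ERR and PGC-1, 1 of 11 measured genes was higher in Wnt4hi cells (8 above 0, median 0.20). Fabp3, which carries fatty acids in the cytosol, was at 10.67, 10.84 and 11.10 in Wnt4hi cells and at 9.70, 10.55 and 10.39 in Wnt4low cells. Its change of 0.66 (standard error 0.26) had an adjusted p of 0.437, and its other probe gave 1.11 (adjusted p = 0.491). It passed the unadjusted threshold in 1 of the 6 fits with 1 array left out, that without Wnt4low replicate 3, and ran from 0.40 to 0.82 over these fits. On the list of uncoupling proteins and adenine nucleotide carriers, 0 of 8 genes passed (5 above 0, median 0.15). Ucp3, the neighbour of Ucp2 on chromosome 7, was at 12.72, 12.32 and 12.31 in Wnt4hi cells and at 11.94, 12.24 and 11.86 in Wnt4low cells. As with Ucp2, and with 9.87% of all genes, all Wnt4hi arrays were above. The log2 fold change of Ucp3 was 0.44 (standard error 0.19, adjusted p = 0.472). On the same list Slc25a14, Slc25a27 and Slc25a30 were below 0, at −0.50, −0.19 and −0.34. Ucp1, the uncoupling protein of brown fat, was well above background on 0 arrays. On the lists of mitophagy (9 of 13 above 0, median 0.17) and of import, chaperones and porins (10 of 15 above 0, median 0.10), 0 genes passed.

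**Figure D4:**
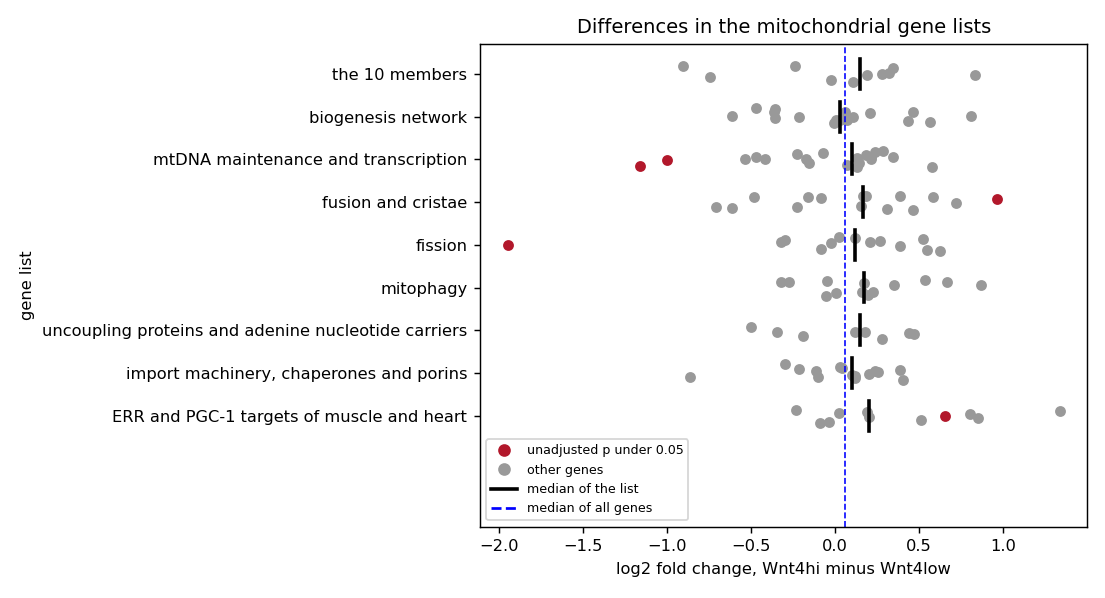
Log2 fold change (horizontal axis, Wnt4hi minus Wnt4low) of the 10 members and of the genes of 8 lists of mitochondrial biogenesis and dynamics, 1 point a gene with random vertical offsets, a black mark at the median of a list and a dashed line at the median of all genes (0.061). Red points are the 5 listed genes past the unadjusted threshold, Inf2 at −1.95, Polg2, Mterf4, Fabp3 and Afg3l2, and 0 of the 10 members are red.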

How the data were processed

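Islet cells of P1 pups were measured on 6 single-color arrays (Agilent SurePrint G3 Mouse GE). Per the labels, RNA was amplified and labelled with Cy5 before hybridization, which can compress or stretch differences. The authors deposited the scanner output, whose intensity of spots and local background is not normalized (Agilent Feature Extraction, 9.1 in the submitters' notes and 12.0.1.1 in the file header), and a deposited table of normalized log2 values, used as an alternative. Its scale is log2, and it holds 9 of the members.

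Following the study's methods, median intensities were corrected with normexp (offset 50) and normalized by quantiles in limma (version 3.58.1, R 4.3.3). Outlier spots (50 to 141 per array) were left out and spots of a probe averaged. Of 35886 probes with RefSeq names, 32994 matched a table of the assembly GRCm38.p6, used for names and promoters. Wnt4hi and Wnt4low were compared with lmFit and eBayes over 56605 probes without covariates, with Benjamini-Hochberg adjustment, and the calculation was tested on simulated data. Median intensity was 10.8 to 15.6 times the median background, and 0 spots were saturated. The brightest probe stood for a gene. Named were the members, at most 3 genes per list and direction past the unadjusted threshold whose arrays did not overlap and whose probe was well above background in the higher population, and relatives marked in the text. Members and lists were chosen with earlier results of these data known. The alternatives changed background, normalization, filters, choice of probe, variance model and values, used the replicate number as a block, and left out each array.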

Additional observations from a re-analysis of the deposited data

How the results depend on the processing

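Under 20 alternatives the count of member genes past the unadjusted threshold stayed at 0 in 15. It was 1 with the methods' t-test (Opa1, at the same log2 fold change), 2 with the fixed replicate block (Ppargc1b at −1.82, adjusted p = 0.180, and Esrrg at 1.25, adjusted p = 0.168), 0 with the random block and 0 to 1 with 1 array left out. The labels share replicate numbers 3 and 4 only, and the deviations of same-numbered arrays correlated at −0.025 and 0.15, so the numbers are not taken as pairs. Of 112 listed genes, 5 passed, against 11 with the fixed and 7 with the random replicate block and 6 to 15 with 1 array left out. Of all probes, 270 passed after adjustment, against 666 with dim probes left out (fewer probes tested), 406 in the authors' table, 0 with the fixed and 376 with the random replicate block, 0 with the methods' t-test and 0 to 3 with 1 array left out. Directions of 5 members turned under some alternatives. With the fixed replicate block, Tfam was 0.12, Dnm1l −0.22, and the other probes of Nrf1 (NM_001164227) and Ppargc1a 0.21 and 0.098. In the authors' table, Dnm1l was −0.20 and Nrf1 0.10. The Nrf1 row was listed there under the probe of NM_001164229, but its values of 9.23 to 9.68 were not those of that probe (5.82 to 6.40 here). Which probes the row stands for was not tested. With the mean of its probes, Opa1 was −0.18. List medians also turned for mitochondrial DNA maintenance (−0.065 with the fixed replicate block, −0.043 in the authors' table), fission (−0.034 with the mean of probes, −0.026 in the authors' table), the biogenesis network (−0.025 with cyclic loess, −0.0077 with the mean of probes, −0.033 and −0.020 without replicate 3 of Wnt4hi or Wnt4low) and import (−0.0032 with the fixed replicate block, −0.026 without Wnt4low replicate 1). With 1 array left out, Ppargc1a ran from −0.13 to 0.56, Tfam from −0.13 to 0.17, Nrf1 from −0.41 to 0.026, Dnm1l from −0.16 to 0.51, the other Ucp2 probe from −0.27 to 0.36, that Nrf1 probe from −0.97 to 0.22 and the other Ppargc1a probe from −0.26 to 0.20. The cause was not tested. Ppargc1b, Esrra, Esrrg, Ucp2 and Mfn2 kept their direction wherever they could be fitted, and no call of a member changed under another background correction or normalization. Inf2 passed the unadjusted threshold in 20 of 20 alternatives (−2.15 to −1.75), Afg3l2 in 18, Polg2 in 16, Mterf4 in 15 and Fabp3 in 8. The filter on dim probes kept 8 members. Signal over background limits Ppargc1a and Esrrg, and also Esrra, which was well above background on 2 of the 3 Wnt4hi arrays. The number of arrays limits all members.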
